A study of Mus musculus with 12 samples.

Results

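Hippocampal transcripts were compared between aged APPswe mice given mAducanumab, an antibody named for aducanumab, and mice given a control immunoglobulin, mIgG, with the antibody effect averaged over 2 gene-transfer vectors. All 12 deposited libraries entered this comparison, out of 12 in the series. All mice were male, 22 to 26 months old and of the APPswe line, so that no group lacked the transgene. Each had 5 µL of an AAV1 vector injected into the cisterna magna, the fluid space at the base of the brain, in which the CMV promoter drove either eGFP or mVEGF-C. Each was then given weekly intraperitoneal injections of antibody at 40 mg/kg. The 4 groups of 3 mice were eGFP with mIgG (mice 1 to 3), eGFP with mAducanumab (mice 4 to 6), mVEGF-C with mIgG (mice 7 to 9) and mVEGF-C with mAducanumab (mice 10 to 12). The measured quantity was the mean of both changes, mAducanumab minus mIgG with eGFP and mAducanumab minus mIgG with mVEGF-C. The genes described are those that passed on this mean and changed in the same direction with each vector, 84 of 14881 genes tested. The sources used here do not state the promoter of the APPswe transgene, the time from injection to dissection or the number of antibody doses.

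APPswe mice carry a form of the amyloid precursor protein with the Swedish mutation, which favours cleavage by beta-secretase, and they deposit amyloid-beta plaques with age. Aducanumab binds aggregated amyloid-beta, and microglia take up antibody-coated aggregates through Fc receptors. Plaques are surrounded by microglia and astrocytes that express complement, lipid-handling and lysosomal genes. Vegfc encodes the growth factor of lymphatic vessels, which in the brain lie in the meninges.

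Library totals ran from 23213612 to 29295266 reads, with a common biological coefficient of variation of 5.16%. Each library is described as the right hippocampus of 1 mouse, although the sample source field reads brain meninges. The median level of 7 CA1 pyramidal cell markers was 80.6 to 94.3 CPM (counts of a gene relative to the scaled library total), that of 8 dentate granule cell markers 43.4 to 59.3 CPM and that of 9 fibroblast markers 3.72 to 8.24 CPM. The lymphatic markers Lyve1, Ccl21a and Mmrn1 were not in the table. Vegfc itself did not pass in the antibody comparison (log2 change 0.04, adjusted p = 0.910, edgeR quasi-likelihood test).

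Some libraries stood apart. Mice 3, 6, 9 and 12 held the middle value of their group in 65.9%, 84.7%, 81.8% and 87.4% of the genes that varied beyond counting noise, against 4.86% to 20.2% for the other 8 libraries. Whether these 4 hold RNA of more than 1 mouse was not tested, and the n of 3, the standard errors and the p-values given here take each library as a separate mouse. The level of App was 1342 CPM in mouse 5 and 3716 CPM in mouse 6, and 4721 to 5507 CPM in the other 10. Results are therefore given also without these libraries.

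Few genes passed, and their changes were small. Of 14881 genes, 85 passed an adjusted p of 0.05 (0.571%; edgeR quasi-likelihood test, two-sided, Benjamini-Hochberg adjusted over all genes), 38 higher (0.255%) and 47 lower (0.316%) with mAducanumab. The genes that rose included Ide, which encodes insulin-degrading enzyme, the synaptic organisers Cbln1 and Cbln2, and the endoplasmic reticulum chaperone Hspa5. Those that fell included the complement genes C3 and C1qc, the acute-phase gene Lcn2, the activity-regulated transcription factor Npas4 and the von Willebrand factor gene Vwf. The median size of change was 0.244 on the log2 scale, 71 of the 85 changed by less than 0.5, and 2 changed by at least 1.

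Of the 85 genes, 84 (0.564% of genes tested) had the same sign of change with both vectors, 38 higher and 46 lower. The exception was Ifit3. Because the test was made on the mean of both changes, a gene with opposite changes was unlikely to pass, and this count is a description of the genes selected. With mAducanumab and eGFP alone 5 genes passed (0.0336%), with mVEGF-C alone 31 (0.208%), and 62 of the 85 passed with neither vector alone. In 35 of the 85 genes all 6 mAducanumab libraries lay apart from all 6 mIgG libraries, 17 above and 18 below. The same held for 137 of all genes (0.921%), 80 above (0.538%) and 57 below (0.383%). The 85 genes were selected by the same comparison of the same libraries, so this count too is a description.

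Both vectors can be set against each other without the selection, since the changes with eGFP and with mVEGF-C share no library. Among the 1371 genes with an unadjusted p under 0.05 with eGFP, 72.7% changed with the same sign with mVEGF-C, and among the 1895 such genes with mVEGF-C, 69.8% had the same sign with eGFP. Over all genes the share was 59.1%. Pearson's r between the changes was 0.164 and Spearman's rho 0.216 over 14881 genes, which are not independent replicates and share the scaling of the libraries. Of the 84 genes, 50 changed more with mVEGF-C and 34 more with eGFP, and 40 changed by amounts within 1.5 times of each other. In the plot of both vectors the 84 genes lie in the quadrants of same sign by their definition, around a cloud of genes with a weak slope. ENSMUSG00000045999, which is among the 84, lies outside the axes.

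**Figure D1:**
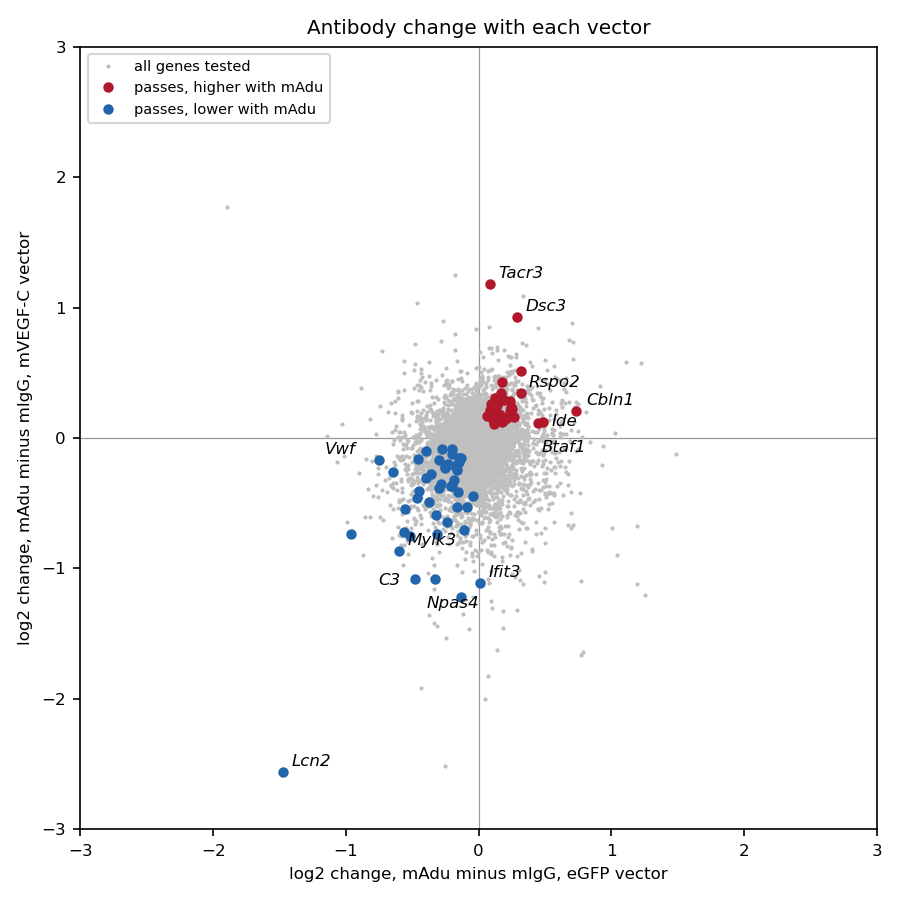
Log2 change with mAducanumab against mIgG for each gene, with the eGFP vector on the horizontal axis and with the mVEGF-C vector on the vertical axis. Coloured points passed on the mean of both changes (38 higher, 47 lower), and 1 gene lies outside the axes, which end at 3 on the log2 scale.

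The count depended on single libraries. Leaving out 1 mouse at a time gave 9 genes (without mouse 12) to 172 genes (without mouse 7), and 9 genes passed each time: Btaf1, Ide, Npas4, Ppp1r3c, Rspo2, Shisa7, Tacr3, Vwf and ENSMUSG00000045999. Without mice 3, 6, 9 and 12, 1 gene passed. All 85 kept their direction and their median size of change was 0.246. The libraries kept were among those that selected the 85, so both are descriptions of the genes selected. The median standard error of the 85 was then 0.066, against 0.045 with all libraries. In that smaller set, 4 mAducanumab libraries lay apart from 4 mIgG libraries in 40 of the 85 genes and in 491 of all genes (3.3%). The 35 of the 85 that lay apart with all 12 libraries are among these 40 by construction. The 85 were also selected on these libraries, so this count is a description. Without mice 5 and 6, 43 genes passed, 25 of them among the 85. The DESeq2 Wald test called 217 genes, 81 of the 85 among them, and limma-voom with sample quality weights 1681, with all 85 among them.

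Markers of a neighbouring tissue were measured too. The choroid plexus, which lies along the hippocampus, has 8 listed markers, of which 6 were measured, none at 0, while Aqp1 and Kcne2 were not in the table. Their summed level was 51.8 to 104.7 CPM in the mIgG libraries and 42.9 to 90.7 CPM in the mAducanumab libraries. Their mean log2 level, relative to the mean of all libraries, was 0.018 to 0.195 with mIgG and -0.872 to 0.359 with mAducanumab. With their mean log2 level as a covariate 12 genes passed, Ide, Btaf1, Rspo2, Ppp1r3c, Agt, Hspa5 and Dsc3 higher and Shisa7, Npas4, Lcn2, AC149090.1 and ENSMUSG00000045999 lower. In that fit Pearson's r between the changes with both vectors was 0.03, and 51.7% of all genes had the same sign. The part of choroid plexus tissue in the other changes was not tested. In bulk RNA, fewer cells of a type and less RNA per cell cannot be told apart.

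The smallest p values belonged to Ide and Btaf1, which lie on chromosome 19 with Cpeb3 and March5 between them. Ide encodes a zinc metalloprotease that degrades insulin and monomeric amyloid-beta. Btaf1 encodes an ATPase that removes the TATA-binding protein from DNA. Both rose, and in both the 6 mAducanumab libraries lay above the 6 mIgG libraries.

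Ide was at 70.5, 72.7 and 70.2 CPM with eGFP and mIgG and at 98.8, 99.2 and 100.4 CPM with eGFP and mAducanumab. With mVEGF-C it was at 71.1, 76.7 and 75.8 CPM with mIgG and at 79.6, 80.5 and 83.1 CPM with mAducanumab. The groups did not overlap with either vector, and the mAducanumab mice that received eGFP were the highest of the 12. The mean log2 change was 0.30 (SE 0.027, adjusted p = 8.46e-05), made of 0.48 with eGFP and 0.12 with mVEGF-C. The difference between the vectors passed its own test (log2 -0.36, SE 0.054, adjusted p = 0.0405), which 2 genes did (0.0134%). Without mice 3, 6, 9 and 12 the mean log2 change of Ide was 0.29 (SE 0.042, adjusted p = 0.201).

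Btaf1 followed the same order of groups. Its level was 84.9, 80.3 and 81.8 CPM with eGFP and mIgG, 110.2, 111 and 115.5 CPM with eGFP and mAducanumab, 89.4, 86.7 and 89.7 CPM with mVEGF-C and mIgG, and 97.8, 95.1 and 95.4 CPM with mVEGF-C and mAducanumab. The mean log2 change was 0.28 (SE 0.026, adjusted p = 8.46e-05), with 0.45 for eGFP and 0.12 for mVEGF-C. Of all genes, Btaf1 had the pattern over the 12 libraries most like that of Ide (Pearson's r of log2 CPM 0.958), followed by Cdkl4 (0.915), Cbln1 (0.911), Lrig1 (0.895) and Wwox (0.872).

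On GRCm38, Ide lies on the minus strand of chromosome 19 from 37268743 to 37337852 and Btaf1 on the plus strand from 36926079 to 37012752. Ppp1r3c, another passing gene of the region, lies at 36731731 to 36736653 on the minus strand. It encodes a subunit that directs protein phosphatase 1 to glycogen, and in the brain it is expressed mainly in astrocytes. Genes between and beside them did not pass. Cpeb3, which lies between Btaf1 and Ide, had a log2 change of 0.02 (adjusted p = 0.881) and Tnks2, between Ppp1r3c and Btaf1, one of 0.01 (adjusted p = 0.865). Fgfbp3, next to Btaf1, had log2 0.18 (adjusted p = 0.253), made of 0.32 with eGFP and 0.05 with mVEGF-C. As in Ide and Btaf1, its change was larger with eGFP. Its eGFP groups were apart, at 4.32, 4.74 and 4.75 CPM with mIgG and 5.23, 5.86 and 6.17 CPM with mAducanumab. Whether these genes share a cause was not tested. Of the 18 genes in the plot of the region, these 3 passed. With mVEGF-C, Cyp26a1, a retinoic acid hydroxylase gene, had a log2 change of 0.68, above those of Ide and Btaf1 but with an SE of 0.453. With eGFP its change was -0.18 (SE 0.403). Its level was low, at 0.199 to 0.944 CPM, and it did not pass on the mean (adjusted p = 0.756).

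**Figure D2:**
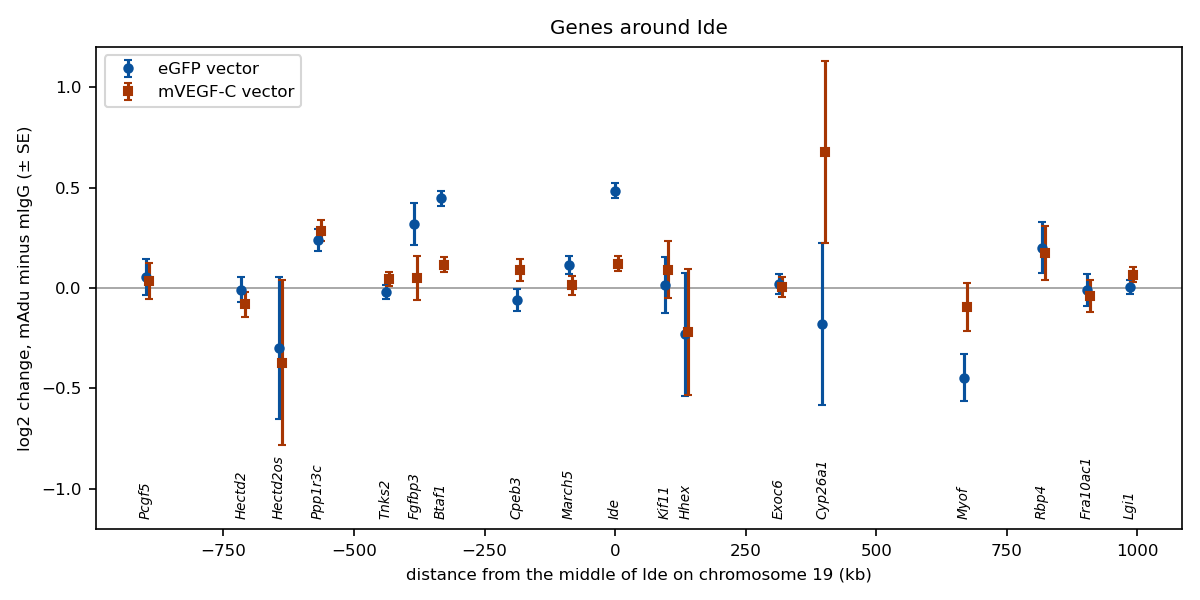
Log2 change with mAducanumab against mIgG with each vector for the measured genes near Ide, against the distance in kb from the middle of Ide. Bars are standard errors. With eGFP, Btaf1 (-333.9 kb) and Ide stand above the genes that lie between them. With mVEGF-C, Cpeb3 between them (0.09, SE 0.054) is close to Btaf1 (0.12, SE 0.037) and Ide (0.12, SE 0.038). Ppp1r3c (-569.1 kb) is above 0 with both vectors.

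In Ppp1r3c, unlike in Ide, the changes with both vectors were of like size. It was at 60.9, 71.9 and 66.8 CPM with eGFP and mIgG and at 77.0, 81.5 and 76.7 CPM with eGFP and mAducanumab. With mVEGF-C it was at 73.0, 78.0 and 78.8 CPM with mIgG and 91.5, 93.7 and 95.0 CPM with mAducanumab. Within each vector the groups were apart, while over all 12 libraries they overlapped. The mean log2 change was 0.26 (SE 0.037, adjusted p = 0.00685), 0.24 with eGFP and 0.29 with mVEGF-C.

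Ide was the only one of 14 measured amyloid-degrading proteases to pass. The list's median log2 change was 0.05. Ece1, which encodes endothelin-converting enzyme and also cleaves amyloid-beta, had a log2 change of 0.13 (adjusted p = 0.0828), and Mme, the gene of neprilysin, one of 0.10 (adjusted p = 0.693). None of 16 genes of amyloid precursor processing passed, and 1 had an unadjusted p under 0.05. With DESeq2 and with limma-voom that count was also 0. Bace1, the beta-secretase gene, had a log2 change of 0.04 (adjusted p = 0.515), and App itself -0.21 (adjusted p = 0.671) with its low values in mice 5 and 6. Without these mice the log2 change of App was 0.11 (adjusted p = 0.237), without mouse 5 -0.02 and without mouse 4 -0.45, none passing.

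Rspo2, Cbln1, Cbln2, Tacr3, Htr1a, Syt4 and Serpini1, which act in signalling or at synapses, rose with mAducanumab. Shisa7, Npas4, Slc8a2, Jph1, Nrgn and Camk2b fell. In Rspo2, Cbln2, Htr1a, Serpini1, Shisa7, Slc8a2, Jph1 and Nrgn the 6 mAducanumab libraries lay apart from the 6 mIgG libraries.

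Rspo2 encodes a secreted R-spondin that amplifies Wnt signalling. Its level was 24.1, 24.9 and 24.7 CPM with eGFP and mIgG, 31.8, 28.1 and 31.9 CPM with eGFP and mAducanumab, 23.1, 21.6 and 21.1 CPM with mVEGF-C and mIgG, and 28.0, 27.8 and 27.7 CPM with mVEGF-C and mAducanumab. The lowest mAducanumab library lay above the highest mIgG library. The mean log2 change was 0.33 (SE 0.041, adjusted p = 0.00234), 0.32 with eGFP and 0.35 with mVEGF-C.

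Cerebellins are secreted proteins that join presynaptic neurexins to postsynaptic receptors. Cbln2 rose by 0.26 on the log2 scale (SE 0.047, adjusted p = 0.0256), from 16.7 to 18.7 CPM over the mIgG libraries to 19.02 to 23.6 CPM over the mAducanumab libraries. Cbln1 rose by 0.47 (SE 0.091, adjusted p = 0.0352), with 7.77, 9.39 and 8.43 CPM against 14.8, 13.8 and 13.8 CPM with eGFP, and 6.97, 11.4 and 9.68 CPM against 10.9, 11.2 and 10.3 CPM with mVEGF-C. Its groups were apart with eGFP and overlapped with mVEGF-C. Unc13c, of the presynaptic Munc13 family that primes vesicles, rose by 0.42 (adjusted p = 0.0437).

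Receptor genes were also among those that rose. Tacr3 encodes the neurokinin B receptor. It was at 4.21, 5.16 and 4.34 CPM with eGFP and mIgG and at 4.40, 5.31 and 4.79 CPM with eGFP and mAducanumab, which overlap, and at 2.48, 2.11 and 1.83 CPM with mVEGF-C and mIgG against 4.69, 4.81 and 5.07 CPM with mVEGF-C and mAducanumab. The mean log2 change was 0.64 (SE 0.094, adjusted p = 0.00806), of which 0.09 was with eGFP and 1.18 with mVEGF-C. The low values were those of the mVEGF-C mice given mIgG, and Tacr3 was the 1 of 20 genes of neuropeptides and their receptors that passed. Htr1a, the gene of the inhibitory serotonin receptor 1A, ranged from 34.4 to 37.1 CPM in the mIgG libraries and from 38.0 to 41.9 CPM in the mAducanumab libraries (log2 0.20, SE 0.034, adjusted p = 0.0196). Serpini1, which encodes neuroserpin, an inhibitor of tissue plasminogen activator, was at 382 to 436 CPM with mIgG and at 446 to 491 CPM with mAducanumab (log2 0.18, adjusted p = 0.0196). Syt4, a synaptotagmin gene, rose by 0.17 (adjusted p = 0.0196).

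Shisa7 had the smallest p of the annotated genes that fell. It encodes an accessory protein of GABA-A and AMPA receptors. Its level was 31.3, 30.5 and 30.7 CPM with eGFP and mIgG, 24.9, 25.5 and 25.6 CPM with eGFP and mAducanumab, 26.7, 31.2 and 29.2 CPM with mVEGF-C and mIgG, and 23.4, 22.5 and 22.5 CPM with mVEGF-C and mAducanumab. The highest mAducanumab library was below the lowest mIgG library. The log2 change was -0.32 (SE 0.040, adjusted p = 0.00257), -0.28 with eGFP and -0.35 with mVEGF-C.

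Npas4 is an immediate early gene of neurons, induced by calcium influx. It was at 8.46, 5.76 and 7.02 CPM with eGFP and mIgG and at 6.44, 5.45 and 5.07 CPM with eGFP and mAducanumab. With mVEGF-C it was at 14.6, 12.1 and 12.8 CPM with mIgG and at 5.65, 6.75 and 6.24 CPM with mAducanumab. The mIgG mice that received mVEGF-C were the highest of the 12, and the eGFP groups overlapped. On average the log2 change was -0.71 (SE 0.094, adjusted p = 0.00377), -0.33 with eGFP and -1.08 with mVEGF-C. Npas4 was the only one of 24 measured immediate early genes to pass. The list's median was 0.02, with 14 members positive, and Fos (log2 0.10, adjusted p = 0.736) and Arc (-0.06, adjusted p = 0.804) did not pass.

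Slc8a2, Jph1, Nrgn, Ryr1 and Camk2b fell by small amounts. Slc8a2, a sodium-calcium exchanger of neurons, was at 182 to 196 CPM in the mIgG libraries and at 152 to 173 CPM in the mAducanumab libraries (log2 -0.19, SE 0.032, adjusted p = 0.0191). Jph1, a junctophilin gene, fell by 0.24 (adjusted p = 0.0235), from 70.5 to 82.8 CPM to 58.4 to 67.5 CPM. Nrgn, the gene of the calmodulin-binding protein neurogranin, was at 266 to 295 CPM with mIgG and at 243 to 264 CPM with mAducanumab (log2 -0.16, adjusted p = 0.0352). Ryr1, the ryanodine receptor 1 gene, had a log2 change of -0.43 (adjusted p = 0.0355), and Camk2b, a subunit of CaM kinase II, one of -0.14 (adjusted p = 0.0474). Camk2b and Nrgn were the 2 of 16 excitatory neuron genes that passed, and the median of that list was -0.06.

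Of 8 desmosome genes 2 passed, Dsp lower and Dsc3 higher. Dsp, the gene of desmoplakin, which marks dentate granule cells in the hippocampus, fell by 0.45 (SE 0.081, adjusted p = 0.0248), with 53.0, 45.9 and 51.5 CPM against 32.0, 31.2 and 33.4 CPM with eGFP. With mVEGF-C its groups overlapped, at 53.3, 38.0 and 42.9 CPM against 31.5, 43.8 and 36.9 CPM. Dsc3, a desmocollin gene, rose by 0.61 (SE 0.110, adjusted p = 0.0256), from 4.97, 6.52 and 5.34 CPM to 8.03, 12.8 and 11.2 CPM with mVEGF-C. With eGFP Dsc3 was at 7.55, 10.3 and 9.12 CPM against 10.1, 11.5 and 11.3 CPM, and mouse 2 lay above mouse 4. Of 13 dentate granule cell genes 12 had a negative change and 1 passed, with a median of -0.11. Sox11, a transcription factor gene of immature neurons, rose by 0.24 (adjusted p = 0.0383), alone of 14 genes on that list.

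The plot of 12 genes by library shows the spread behind these values.

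**Figure D3:**
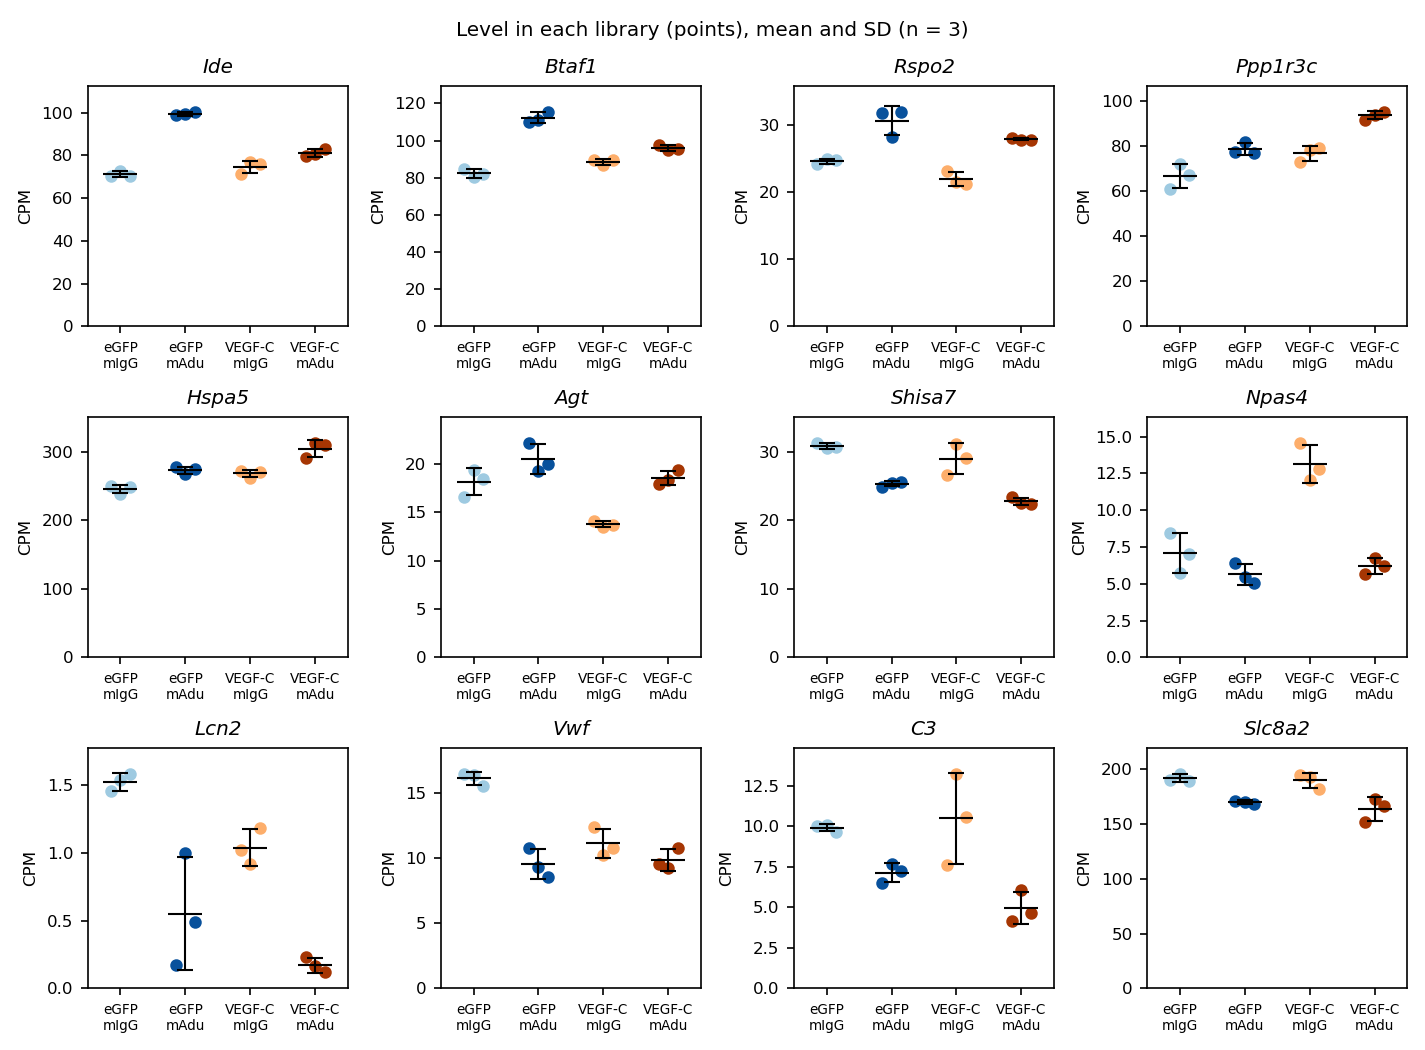
CPM of 12 genes that passed, per library, in the 4 groups of 3 mice. Points are mice, with the group mean and SD. In Ide, Btaf1, Rspo2 and Shisa7 the mAducanumab mice stand apart from the mIgG mice, while Npas4 is highest in the mVEGF-C mice given mIgG.

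Single astrocyte genes rose, and a gene of reactive astrocytes fell. Of 15 measured astrocyte genes Ppp1r3c and Agt passed, both higher, and the list's median was 0.04. Agt encodes angiotensinogen, which astrocytes secrete in the brain. It was at 16.6, 19.4 and 18.4 CPM against 22.2, 19.2 and 20.1 CPM with eGFP and at 14.1, 13.5 and 13.7 CPM against 17.9, 18.4 and 19.4 CPM with mVEGF-C. The eGFP groups overlapped and the mVEGF-C groups did not, and the log2 change was 0.30 (SE 0.051, adjusted p = 0.0196).

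Dio2, Mfge8 and Ednrb rose, by similar amounts with both vectors. Dio2, the astrocytic deiodinase that activates thyroid hormone, changed by 0.24 with eGFP and 0.23 with mVEGF-C (mean 0.24, adjusted p = 0.0352). Mfge8, which encodes a secreted bridge between phosphatidylserine and phagocytes, changed by 0.25 and 0.23 (mean 0.24, adjusted p = 0.0352). Ednrb, the endothelin receptor B gene, was 0.17 higher with each vector (adjusted p = 0.0490). Etnppl, an astrocytic enzyme gene of phosphoethanolamine breakdown, fell by 0.46 with each vector (adjusted p = 0.0248).

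Of 18 reactive astrocyte genes 1 passed, Lcn2, which fell. The median log2 change of the list was -0.26, -0.16 with eGFP and -0.36 with mVEGF-C. On the mean of both vectors 17 of 18 members were negative, 14 with an unadjusted p under 0.05. Over all genes the median change on that mean was -0.0013, and 2300 (15.5%) had an unadjusted p under 0.05. Taken by vector, 2 of the 18 had an unadjusted p under 0.05 (edgeR) with eGFP, 13 with mVEGF-C and 6 for the difference between vectors. Lcn2 encodes lipocalin 2, an iron-siderophore carrier made in inflammation. It was at 1.45, 1.53 and 1.58 CPM with eGFP and mIgG, 0.173, 0.995 and 0.487 CPM with eGFP and mAducanumab, 1.02, 0.914 and 1.18 CPM with mVEGF-C and mIgG, and 0.231, 0.162 and 0.121 CPM with mVEGF-C and mAducanumab. These levels rest on 3 to 46 reads per library, and mouse 5 lay above 1 mIgG library. Its log2 change was -2.02 (SE 0.294, adjusted p = 0.00806), -1.47 with eGFP and -2.56 with mVEGF-C. Gfap, the intermediate filament of astrocytes, had a log2 change of -0.23 (adjusted p = 0.181), Vim one of -0.31 (adjusted p = 0.0805) and Serpina3n one of -0.45 (adjusted p = 0.132).

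Of 10 measured complement genes 2 passed, both lower with mAducanumab: C3, the central component of all complement pathways, and C1qc, a chain of C1q. The change was negative in 9 of the 10. The list's median was -0.30, -0.11 with eGFP and -0.53 with mVEGF-C. On the mean 7 members had an unadjusted p under 0.05, against 15.5% of all genes. Taken by vector, 2 had an unadjusted p under 0.05 (edgeR) with eGFP, 7 with mVEGF-C and 5 for the difference between vectors. Cd55, an inhibitor of complement at the cell surface, was the 1 member with a positive mean change (log2 0.12, adjusted p = 0.436).

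C3 was at 9.99, 10.1 and 9.67 CPM with eGFP and mIgG and at 6.51, 7.66 and 7.22 CPM with eGFP and mAducanumab. With mVEGF-C it was at 7.62, 13.2 and 10.6 CPM with mIgG and at 4.15, 6.06 and 4.67 CPM with mAducanumab. The groups were apart within each vector, and mouse 7, given mIgG, lay just below mouse 5, given mAducanumab. The log2 change was -0.78 (SE 0.117, adjusted p = 0.00856). C1qc was at 43.6, 48.3 and 42.6 CPM against 38.1, 46.4 and 41.9 CPM with eGFP, which overlap, and at 43.5, 53.1 and 48.6 CPM against 30.8, 36.0 and 34.0 CPM with mVEGF-C (log2 -0.31, SE 0.059, adjusted p = 0.0352). The other C1q chains, C1qa (log2 -0.31, adjusted p = 0.0606) and C1qb (-0.28, adjusted p = 0.0592), and C4b (-0.71, adjusted p = 0.0592) did not pass. C4b has a near-identical copy, and its counts are uncertain.

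The complement and choroid plexus levels of the same libraries are set side by side in the plot of list levels. The mean log2 level of the 10 complement genes was 0.09, 0.25 and 0.08 in mice 1 to 3, -0.11, 0.07 and 0.04 in mice 4 to 6, 0.04, 0.30 and 0.21 in mice 7 to 9, and -0.44, -0.24 and -0.29 in mice 10 to 12, relative to the mean of all libraries. The 3 mVEGF-C mice given mAducanumab were lowest. The level of 13 choroid plexus genes was 0.13, 0.11 and 0.19 in mice 1 to 3, 0.32, 0.12 and 0.19 in mice 4 to 6, -0.05, 0.08 and 0.09 in mice 7 to 9, and -0.69, -0.19 and -0.28 in mice 10 to 12. The same 3 mice were lowest in it, whereas with eGFP the choroid plexus genes were not lower with mAducanumab. On the mean of both vectors no choroid plexus gene passed with edgeR, 1 had an unadjusted p under 0.05, and none passed with DESeq2 and 1 with limma-voom. Taken by vector, an unadjusted p under 0.05 (edgeR) was held by 1 of the 13 with eGFP and 6 with mVEGF-C. For the difference between vectors it was held by 4, and 0 passed in any of these tests. The summed level of 5 microglia markers was 289.3 to 340.1 CPM with mIgG and 282.1 to 349.1 CPM with mAducanumab. The part of tissue composition in these changes was not tested.

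**Figure D4:**
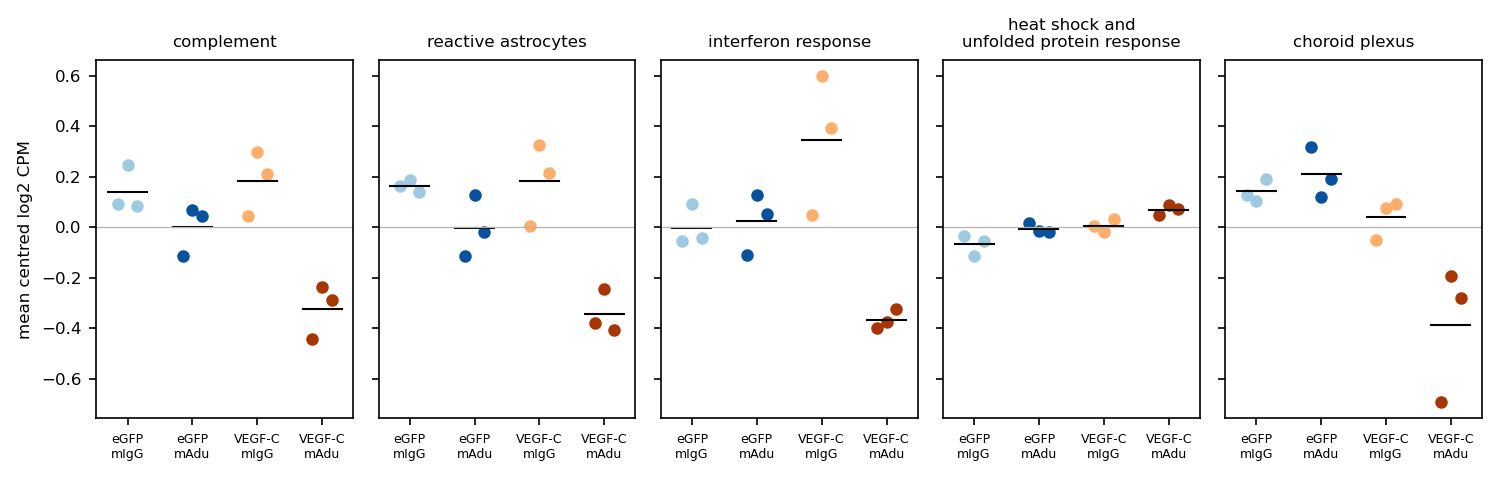
Mean log2 CPM of the measured genes of 5 lists in each library, relative to the mean of the 12 libraries, on a vertical log2 scale, for complement, reactive astrocytes, interferon response, heat shock and unfolded protein response, and choroid plexus. Points are mice and lines are group means. The mVEGF-C mice given mAducanumab are lowest in 4 of the 5 lists and highest in heat shock and unfolded protein response.

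Of 20 interferon response genes 1 passed on the mean, Ifit3, and of 17 MHC genes 1, H2-K1. With mVEGF-C alone 6 interferon genes and 2 MHC genes passed, with eGFP alone 0 of either list (unadjusted p under 0.05: 0 and 1). In the test of the difference between vectors 0 of either list passed (edgeR; unadjusted 13 and 9). All 20 interferon genes had a negative mean change, 8 had the same sign with both vectors, and the median was 0.01 with eGFP and -0.78 with mVEGF-C. Ifit3, of the interferon-induced family that binds viral RNA, passed on the mean (log2 -0.55, SE 0.110, adjusted p = 0.0383) with 0.01 for eGFP and -1.11 for mVEGF-C. Its levels were 9.12, 9.72 and 8.88 CPM against 7.97, 9.91 and 10.02 CPM with eGFP and 10.3, 17.3 and 13.9 CPM against 5.76, 7.28 and 6.20 CPM with mVEGF-C. It thus passed without a common direction.

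H2-K1, a class I antigen-presenting molecule, was the 1 of 17 MHC genes that passed (log2 -0.41, SE 0.081, adjusted p = 0.0383). It was at 25.8, 29.2 and 26.4 CPM against 22.97, 27.7 and 24.8 CPM with eGFP, which overlap, and at 24.3, 36.5 and 32.9 CPM against 18.0, 20.2 and 19.4 CPM with mVEGF-C. Over all 17 the mean change was negative, with medians of 0.01 for eGFP and -0.61 for mVEGF-C. H2-K1 and Ifit3 belong to families of near-identical genes, so their counts are uncertain. The lists of reactive astrocytes, interferon response and MHC share Gbp2 or Psmb8.

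No gene of plaque-associated microglia passed with both vectors combined. Of 25 measured, 23 had a negative change, 18 of them with each vector, with a median of -0.18. The median was -0.04 with eGFP and -0.27 with mVEGF-C. An unadjusted p under 0.05 (edgeR) was held by 1 member with eGFP, 17 with mVEGF-C and 11 for the difference between vectors. Over all 14881 genes these numbers were 1371, 1895 and 1015. No member passed in any of these tests. On the mean of both vectors 16 had an unadjusted p under 0.05, against 15.5% of all genes. With DESeq2 3 passed, and with limma-voom 13, which called 217 and 1681 of all 14881 genes. Cst7, an inhibitor of cathepsins (log2 -1.39, adjusted p = 0.102), and Itgax, the integrin CD11c (log2 -1.18, adjusted p = 0.0852), did not pass, on 5 to 48 and 11 to 70 reads per library. Trem2, the lipid-sensing receptor of microglia, had a log2 change of -0.23 (adjusted p = 0.218). Among 16 genes of Fc receptors and their signalling, through which antibody acts on microglia, 0 passed, 8 had an unadjusted p under 0.05, 0 passed with DESeq2 and 7 with limma-voom. Their median was -0.07 with eGFP and -0.25 with mVEGF-C. An unadjusted p under 0.05 (edgeR) was held by 0 with eGFP, 9 with mVEGF-C and 3 for the difference. Fcgr1, the high-affinity IgG receptor, had a log2 change of -0.45 (adjusted p = 0.0887). Of 15 homeostatic microglia genes 0 passed, 4 had an unadjusted p under 0.05, 0 passed with DESeq2 and 5 with limma-voom, and their median was -0.05. That median was 0.045 with eGFP and -0.165 with mVEGF-C, and 3 of the 15 had the same sign with both. With mVEGF-C alone 1 of them passed (edgeR), and 0 with eGFP alone or in the difference. An unadjusted p under 0.05 was held by 2 with eGFP, 8 with mVEGF-C and 9 for the difference.

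The chaperone of the endoplasmic reticulum was higher with mAducanumab. Hspa5, known as BiP, was at 250.2, 239 and 249 CPM with eGFP and mIgG, 278, 268 and 275 CPM with eGFP and mAducanumab, 272, 263 and 271 CPM with mVEGF-C and mIgG, and 292, 314 and 310.2 CPM with mVEGF-C and mAducanumab. It was higher in every mAducanumab mouse than in every mIgG mouse of the same vector. Its log2 change was 0.17 (SE 0.026, adjusted p = 0.0127), 0.15 with eGFP and 0.18 with mVEGF-C. It was the 1 of 19 heat shock and unfolded protein genes that passed, with 17 positive and a median of 0.05. Xbp1, the transcription factor of that response, had a log2 change of 0.13 (adjusted p = 0.0797), Dnajb1 one of 0.12 (adjusted p = 0.150) and Hsp90aa1 one of 0.10 (adjusted p = 0.119). Of 27 nuclear-encoded respiratory chain genes 24 were positive, with a median of 0.04, and 0 passed, 3 had an unadjusted p under 0.05, 0 passed with DESeq2 and 2 with limma-voom.

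Single genes of vessels, myelin, ependyma and lipid transport fell. Vwf encodes the adhesive glycoprotein stored in endothelial cells. It was at 16.4, 16.3 and 15.5 CPM against 10.7, 9.29 and 8.52 CPM with eGFP and at 12.3, 10.2 and 10.8 CPM against 9.56, 9.22 and 10.8 CPM with mVEGF-C. The eGFP mice given mIgG were the highest of the 12, and the mVEGF-C groups overlapped. Its log2 change was -0.46 (SE 0.068, adjusted p = 0.00806), and Vwf was the 1 of 23 endothelial genes that passed. Cldn5, the tight junction gene of brain endothelium, had a log2 change of 0.01 (adjusted p = 0.961).

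Mal, a proteolipid of compact myelin, fell by 0.23 (SE 0.041, adjusted p = 0.0248), from 296 to 346 CPM to 242 to 301 CPM. Of 19 oligodendrocyte genes 18 had a negative change, 12 of them with each vector, with a median of -0.12. The median was -0.04 with eGFP and -0.17 with mVEGF-C. An unadjusted p under 0.05 (edgeR) was held by 3 members with eGFP and 10 with mVEGF-C. On the mean of both vectors Mal alone passed. Opalin (log2 -0.25, adjusted p = 0.0720), Cldn11 (-0.28, adjusted p = 0.0789) and Mobp (-0.19, adjusted p = 0.0606) did not. Apod, the gene of apolipoprotein D, fell by 0.53 (SE 0.105, adjusted p = 0.0383). Its level was 238, 299 and 272 CPM against 176, 261 and 212 CPM with eGFP, which overlap, and 201, 335 and 277 CPM against 159.7, 166 and 162 CPM with mVEGF-C. Apoe, the main lipid carrier of the brain and of amyloid-beta, had a log2 change of -0.07 (adjusted p = 0.255).

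Tekt1, which encodes a tektin of motile cilia, was at 3.30 to 4.32 CPM with mIgG and at 2.27 to 3.21 CPM with mAducanumab (log2 -0.43, SE 0.086, adjusted p = 0.0383), with no overlap. It was the 1 of 12 ependymal genes that passed. The ependymal median was -0.24 on the mean of both vectors, -0.03 with eGFP and -0.40 with mVEGF-C. Of the 12 genes, 1 had an unadjusted p under 0.05 (edgeR) with eGFP, 7 with mVEGF-C and 1 for the difference between vectors. Relative to the mean of all libraries, the list's mean log2 level was 0.003, 0.056 and 0.038 in mice 7 to 9. In mice 10 to 12 it was -0.63, 0.08 and -0.44. In the fit that included choroid plexus marker level, the list's median was -0.13. Foxj1, the ciliary transcription factor, had a log2 change of -0.29 (adjusted p = 0.150). Mt1, a metallothionein, fell by 0.21 (adjusted p = 0.0383), with counts that a near-identical gene makes uncertain. Mylk3, a myosin light chain kinase gene, was at 2.57 to 3.94 CPM with mIgG and 1.46 to 2.04 CPM with mAducanumab (log2 -0.73, SE 0.127, adjusted p = 0.0235), again with no overlap.

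The change of largest size belonged to ENSMUSG00000045999, an identifier absent from the annotation used. It was at 91440, 91830 and 24410 CPM in the eGFP mice given mIgG, and at 154, 236 and 152 CPM in those given mAducanumab. In the mVEGF-C mice it was at 170.0, 1037 and 132 CPM with mIgG and at 108, 149.9 and 113 CPM with mAducanumab, and these groups overlapped. High values were thus a feature of the 3 eGFP mice given mIgG. The TMM scaling factors of mice 1 and 2, at 0.94 and 0.927, were the lowest of the 12, and the others were 0.997 to 1.027. Whether this identifier bears on the changes of other genes was not tested. The log2 change was -5.22 (SE 0.494, adjusted p = 8.46e-05), -8.58 with eGFP and -1.85 with mVEGF-C, and the difference between vectors passed (log2 6.73, SE 0.910, adjusted p = 0.0266). It was the only gene that passed without mice 3, 6, 9 and 12 (log2 -5.55, adjusted p = 0.00810).

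The plot of lists summarises the directions over all gene groups.

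**Figure D5:**
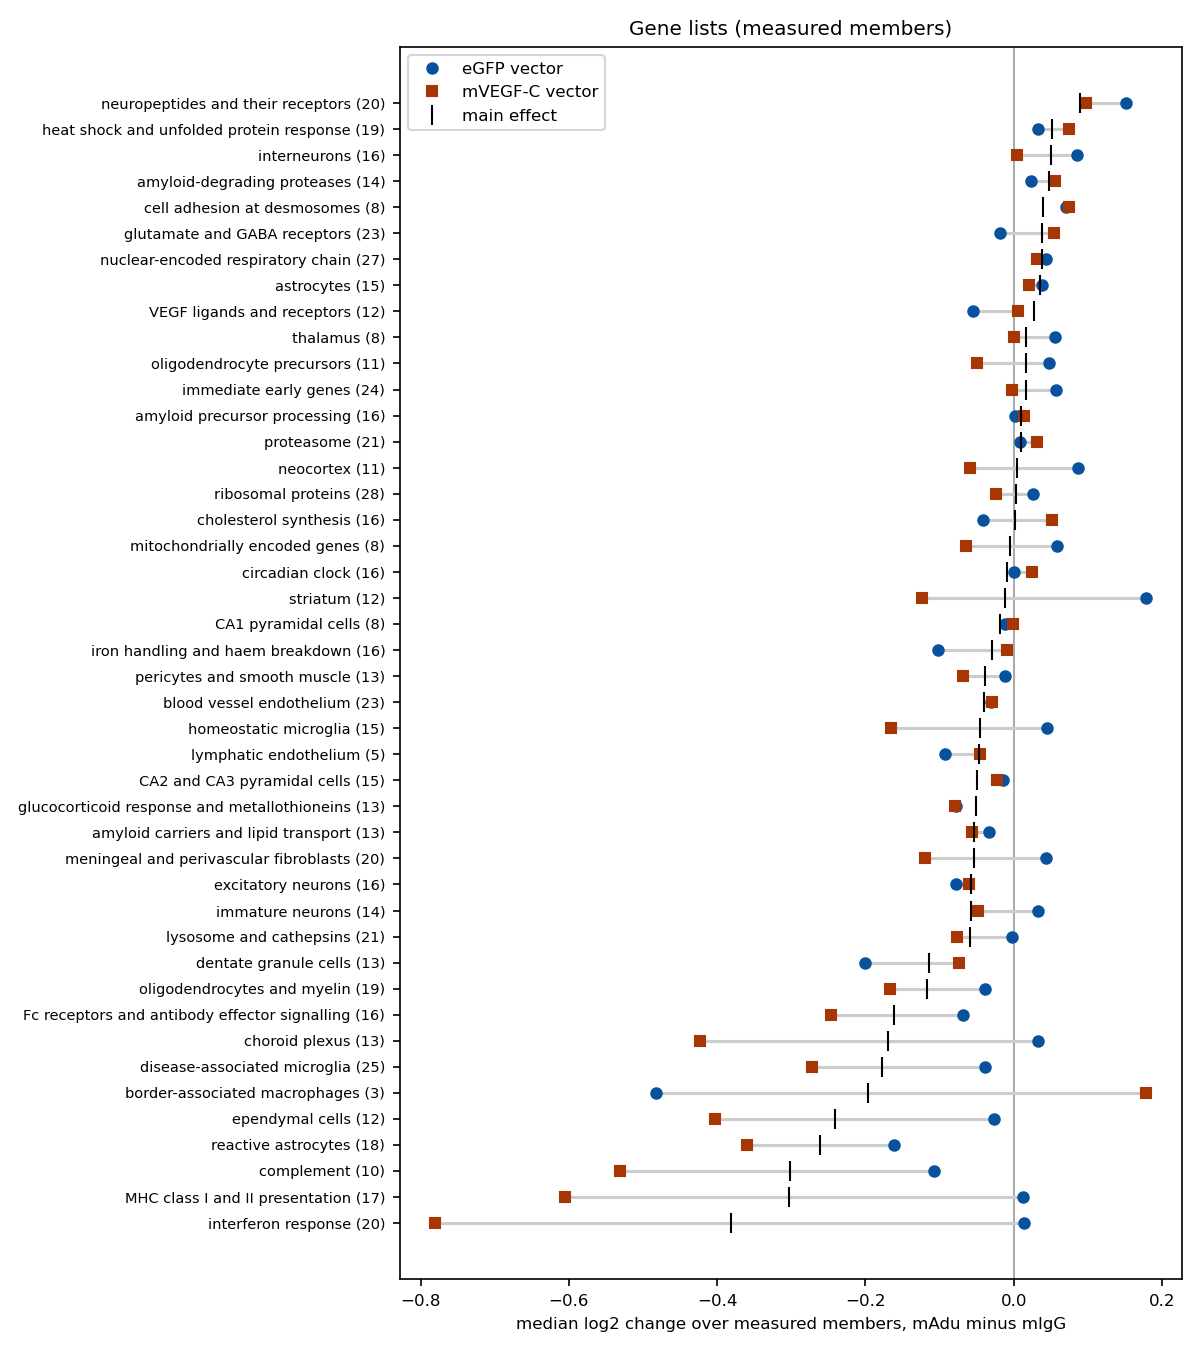
Median log2 change with mAducanumab of the measured genes of each list with at least 3 measured, for the mean of both vectors, for eGFP and for mVEGF-C. The medians of interferon response (-0.78 with mVEGF-C, 0.01 with eGFP) and MHC (-0.61 and 0.01) lie far from 0 with 1 vector, and those of reactive astrocytes (-0.36 and -0.16) below 0 with each.

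Promoter letters of the passing genes were read from RefSeq (GRCm38.p6), from 250 bases before to 50 after each gene's start, on both strands. A promoter was found for 27 of the 38 genes that rose and for 34 of the 46 that fell with both vectors. The cAMP response element TGACGTCA, a sequence bound by CREB, was present in 4 of the 27 (14.8%) and in 0 of the 34, against 398 of 11262 promoters of genes tested (3.53%) and 549 of 27025 in the table (2.03%). The E-box CACGTG was in 2 of the 27 (7.41%) and 4 of the 34 (11.8%), against 11.5% of genes tested. The interferon-stimulated response element was in 2 of the 27 (7.41%) and 0 of the 34, against 3.55%. A match describes letters and is neither a site in use nor a cause. The promoters with TGACGTCA are printed because Btaf1 is among them, each as the 250 bases before the start, 5′ to 3′ on the gene's strand, with capitals marking the element. Btaf1 lies at chr19:36925829-36926078 (+), Dio2 at chr12:90739039-90739288 (-), Zbtb11 at chr16:55973554-55973803 (+) and Zwint at chr10:72654596-72654845 (+).
Btaf1: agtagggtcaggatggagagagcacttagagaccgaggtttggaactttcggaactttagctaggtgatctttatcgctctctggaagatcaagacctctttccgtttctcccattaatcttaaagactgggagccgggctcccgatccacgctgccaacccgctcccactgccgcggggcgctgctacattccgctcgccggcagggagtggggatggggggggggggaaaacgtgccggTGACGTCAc
Dio2: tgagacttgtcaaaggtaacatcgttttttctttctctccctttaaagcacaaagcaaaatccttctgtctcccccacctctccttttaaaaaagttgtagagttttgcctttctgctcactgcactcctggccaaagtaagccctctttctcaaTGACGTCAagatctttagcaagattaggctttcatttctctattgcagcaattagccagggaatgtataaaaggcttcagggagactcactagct
Zbtb11: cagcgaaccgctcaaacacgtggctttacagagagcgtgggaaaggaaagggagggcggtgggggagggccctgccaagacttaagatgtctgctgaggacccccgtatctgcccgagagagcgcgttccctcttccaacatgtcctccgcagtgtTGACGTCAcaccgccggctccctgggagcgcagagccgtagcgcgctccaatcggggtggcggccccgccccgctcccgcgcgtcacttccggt
Zwint: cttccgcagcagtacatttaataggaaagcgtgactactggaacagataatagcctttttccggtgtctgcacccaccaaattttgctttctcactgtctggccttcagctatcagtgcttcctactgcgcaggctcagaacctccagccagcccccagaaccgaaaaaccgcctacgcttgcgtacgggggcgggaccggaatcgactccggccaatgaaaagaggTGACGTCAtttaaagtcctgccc
The element begins 9 bases before the start in Btaf1, 23 in Zwint, 94 in Zbtb11 and 95 in Dio2. Zbtb11, a zinc finger gene, rose by 0.13 and Zwint, a kinetochore gene, by 0.11 on the log2 scale.

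The remaining genes changed by amounts in the same range. Higher were Lrig1, a brake on growth factor receptors (log2 0.21, adjusted p = 0.0347), Fgf9, a growth factor (0.22, adjusted p = 0.0355), Cd200, the neuronal ligand that restrains microglia (0.15, adjusted p = 0.0437), Kcnc4, a fast potassium channel gene (0.20, adjusted p = 0.0448) and Slc6a7, the proline transporter (0.16, adjusted p = 0.0352). In Lrig1, Fgf9 and Cd200 the 6 mAducanumab libraries lay above the 6 mIgG libraries. Lower were Wnt9a, a Wnt ligand (-0.45, adjusted p = 0.0352), Tgm2, the tissue transglutaminase (-0.29, adjusted p = 0.0429), Ephx1, an epoxide hydrolase (-0.25, adjusted p = 0.0347), Capn3, a calpain protease (-0.23, adjusted p = 0.0490) and Npnt, a matrix ligand of integrins (-0.25, adjusted p = 0.0490). Ephx1 and Capn3 had no overlap between the antibodies. Ide, C3, Serpini1, Ephx1, Ryr1, Unc13c, Lrig1, Capn3 and Zbtb11 overlap another annotated gene on the same strand, in Ide the pseudogene Rpl10-ps6. Tgm2, Syt4, Jph1, Mylk3, Dsp, Dio2, Cbln1, Fgf9 and Npnt overlap annotated genes only on the other strand. The counts of all these genes are therefore uncertain.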

How the data were processed

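Total RNA of 12 hippocampi was purified (Arcturus PicoPure) and linearly amplified, per the labels. The authors deposited raw read counts per gene, with no normalization. The submitters' processing notes name STAR, featureCounts, Subread, edgeR, Trim Galore and FastQC, and the build mm10. Not given in the sources used here are their versions, the annotation, strand and the treatment of multiply mapped reads.

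Counts were fitted in R 4.3.3 with edgeR 4.0.16 (TMM scaling, quasi-likelihood test, 1 mean per group), p adjusted by Benjamini-Hochberg over 14881 genes, threshold 0.05, two-sided. All 4 contrasts came from this fit. filterByExpr removed no gene, and the lowest gene total was 147 reads. Standard errors are the absolute log2 change divided by the square root of F. List levels used log2 CPM with a prior count of 2. Libraries were treated as separate mice, and depth limits precision to reads, not molecules. No replicate pair held the same counts. Symbols and positions came from GENCODE M21 (GRCm38), which named 14797 identifiers. Scripts were tested on simulated data. Alternatives used DESeq2 1.42.0 and limma 3.58.1.

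The members, the 45 gene lists and the tests were chosen with earlier results of these data known. Named by rule were the 15 genes with the smallest p in each direction, genes of opposite sign, up to 4 per list, 29 followed genes, and the 5 genes next to or most like the leading ones. Chosen after their values were seen were AC149090.1, Cbln1, Unc13c, Ryr1, Dio2, Mfge8, Ednrb, Lrig1, Fgf9, Cd200, Kcnc4, Slc6a7, Wnt9a, Tgm2, Capn3, Npnt, Zbtb11 and Zwint, and list members with larger p.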

Additional observations from a re-analysis of the deposited data

Results flagged for a closer look

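For 2 genes the antibody change differed between the vectors by a test of the difference itself (edgeR quasi-likelihood interaction, adjusted over all genes). For Ide the change with mVEGF-C minus that with eGFP was -0.36 on the log2 scale (SE 0.054, adjusted p = 0.0405). ENSMUSG00000045999 had a difference of 6.73 (SE 0.910, adjusted p = 0.0266), from its high values in the 3 eGFP mice given mIgG. Neither passed this edgeR test without mice 3, 6, 9 and 12, when 0 genes did (248 at an unadjusted p under 0.05), nor without mice 5 and 6 or with the choroid plexus covariate. With all libraries DESeq2 called 8 genes and limma-voom 220.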

How the results depend on the processing

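Counts are given in the order mean over both vectors, same sign with both, eGFP alone, mVEGF-C alone, difference between vectors, and were 85, 84, 5, 31 and 2 as reported. The DESeq2 Wald test gave 217, 213, 40, 126 and 8, and limma-voom with quality weights 1681, 1600, 507, 1234 and 220. These included 81 and all 85 of the reported genes. Fibroblast marker level as a covariate gave 365, 361, 17, 196 and 7, and choroid plexus marker level 12, 12, 4, 0 and 0 (unadjusted p under 0.05: 966 with mVEGF-C, 661 for the difference). An additive model gave 57. Leaving out mice 3, 6, 9 and 12 gave 1, 1, 2, 0 and 0 (unadjusted 872 for the mean, 683 with mVEGF-C, 248 for the difference), and leaving out mice 5 and 6 gave 43, 43, 6, 34 and 0 (unadjusted 1143). Leaving out 1 mouse gave 9 to 172, 9 to 167, 4 to 35, 2 to 138 and 0 to 36. For the mean, the count was 14, 15, 29, 11, 23, 18 and 9 without mice 1, 3, 4, 6, 9, 10 and 12, and 154, 172 and 168 without mice 5, 7 and 8. The cause was not tested. DESeq2 size factors, no filter and a mean CPM of at least 1 kept the first count at 84 to 86. All 85 genes kept their direction in each setting that tested them, but each setting reused libraries on which these genes were selected. Lcn2 and Snora23 were not tested at a mean CPM of at least 1. The choice of libraries to leave out for the counts of groups that lie apart was made after seeing the data. No paired analysis was possible because mouse numbers 1 to 12 are unique and the groups share none.

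Genes with few reads, Lcn2 with 3 to 46 per library among them, have wide errors, and with 3 mice per group small changes can be missed.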
